A study of Mus musculus with 2 samples.

Results

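The cells described here are unconventional, Cd8b1-negative T cells of the mouse gut that resemble intraepithelial lymphocytes. They were picked barcode by barcode from raw counts of unique molecular identifiers (UMIs). The quality limits were a minimum of 500 UMIs and 200 genes per barcode, with no more than 10% of UMIs from mitochondrial genes. A member needed at least 1 UMI of Cd3e or Cd3g, at least 1 of Cd8a or Trdc and at least 1 of Xcl1, Klrd1 or Klra7. It had to have 0 UMIs of Cd8b1, of Cd4, of Cd79a and of the interleukin 17 genes Il17a, Il17f and Il23r, and fewer than 3 UMIs of the proliferation genes Mki67 and Top2a together. These 445 barcodes were 135 of the 10012 that passed the quality limits in the CD163_NC library and 310 of the 14379 that passed in the CD163_FL library, out of 25660 deposited. The measured values of the genes just listed chose the members, so their levels are given only as a description.

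Both libraries hold CD45+ cells of mouse gut lamina propria, with the colon named as the organ in the labels' protocols. Cells at a Percoll interphase were stained and sorted without dead (7-AAD stained) cells, and their RNA was read by the 10x 3' V3 method. According to its title, the series compared WT animals with animals lacking CD163+ macrophages. The labels do not tie either library to a genotype, and none is assigned here. The labels give neither treatment, strain, age nor sex, nor how many animals were pooled, nor how the macrophages were depleted. With 1 library per group there is no replicate check. No test was made, every ratio compares 2 libraries or 2 classes of cell within them, and all intervals are 95% intervals that cover counting error only. Of the barcode sequences, 49 occurred in both libraries, and they included 2 members of CD163_NC and 1 of CD163_FL.

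Most CD8 T cells carry a CD8 receptor made of an alpha and a beta chain, encoded by Cd8a and Cd8b1. The gut epithelium also holds T cells that lack the beta chain. These natural or unconventional intraepithelial lymphocytes have either a gamma delta receptor, whose delta constant region is Trdc, or an alpha beta receptor with CD8 alpha homodimers, and they express receptors and signalling adaptors shared with natural killer cells. Ikzf2, which encodes the transcription factor Helios, is known from CD8 alpha alpha intraepithelial cells as well as from regulatory T cells. In the mm10 build Cd8b1 (chromosome 6, 71322788 to 71337494) and Cd8a (71373427 to 71379173) are neighbours on the plus strand, 35932 bases apart. All 22 listed genes of the killer lectin-like (Klr) family lie further along the same chromosome, between 122270596 and 130386874. Ikzf2 is on the minus strand of chromosome 1 (69531214 to 69687245), and Trdc is on the plus strand of chromosome 14 (54142851 to 54148868), inside the locus of the receptor alpha chain.

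Members were a small part of both libraries and a larger part of CD163_FL. They made up 1.35% of barcodes that passed the limits in CD163_NC (exact binomial interval 1.13 to 1.59) and 2.16% in CD163_FL (1.92 to 2.41), a ratio of 1.60 (1.31 to 1.95). T cells as a whole also took a larger part of CD163_FL, and among barcodes with a Cd3e or Cd3g UMI the shares were 3.26% (2.74 to 3.85) and 3.91% (3.50 to 4.36), a ratio of 1.20 (0.983 to 1.46). The closest comparison population met every criterion except that it had at least 1 Cd8b1 UMI. These Cd8b1-positive counterparts, which have the beta chain transcript of conventional CD8 T cells, numbered 237 in CD163_NC and 994 in CD163_FL. Members were therefore 36.3% (31.4 to 41.4) of both groups together in CD163_NC and 23.8% (21.5 to 26.2) in CD163_FL. Median depth was 5765 and 6479 UMIs in members against 6458 and 8504.5 in counterparts.

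Trdc and Cd8a divided the members into 3 kinds. Trdc without Cd8a was found in 36 members of CD163_NC and 63 of CD163_FL, both genes in 13 and 22, and Cd8a without Trdc in 86 and 225. A Trdc UMI was thus present in 36.3% (28.2 to 45.0) and 27.4% (22.5 to 32.7) of members, a ratio of 0.755 (0.567 to 1.01) that does not leave 1 at this depth. B cells, which should lack the gene, had a Trdc UMI in 0.459% and 0.556% of barcodes at median depths of 5802.5 and 5116.5 UMIs. Thinned to 2000 UMIs per cell, members had Trdc in 23.0% and 15.6%, and B cells in 0.0519% and 0.141%. Members with Trdc also carried a gamma chain constant UMI (Tcrg-C1, Tcrg-C2 or Tcrg-C4) in 39 of 49 and 38 of 85 cells, and an alpha chain constant UMI (Trac) in 22 and 29. Members without Trdc had a Trac UMI in 74 of 86 and 184 of 225 cells, and a gamma chain constant UMI in 38 and 37. Cells with such a gamma chain UMI and no Trdc were 11.4% and 5.23% of counterparts. Trdc therefore did not cleanly divide members by receptor transcript. The natural killer criterion was met mostly through Klrd1, the CD94 chain of natural killer receptors, which was the only 1 of its 3 genes detected in 74 and 188 members.

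Many members stood near an edge of the rule. Exactly 1 UMI of Cd8a and Trdc together admitted 54 members of CD163_NC (40.0%) and 129 of CD163_FL (41.6%), and exactly 1 UMI of the natural killer genes admitted 36 and 91. The CD3 edge differed between the libraries. Exactly 1 UMI of Cd3e and Cd3g together was found in 5 members of CD163_NC (3.70%) and 52 of CD163_FL (16.8%). The part of this difference in the ratios between libraries was not tested. On the other side, 46 and 199 counterparts were kept out by a single Cd8b1 UMI, and 15 and 87 cells failed only for want of a CD3 UMI. A Cd8b1 count of 0 can also come from shallow sampling. With every cell thinned to 2000 UMIs, 32.2% of the counterparts of CD163_NC and 44.9% of those of CD163_FL showed no Cd8b1 UMI, and 16 of 236 and 75 of 994 then met the whole rule. Of the 74 and 193 cells that met the rule after thinning, 49 and 87 were members at full depth. How many members at full depth carry an unsampled Cd8b1 transcript was not tested.

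The 2 defining markers that the rule did not use, Ikzf2 and Cd7, were found in most members. Ikzf2 had a UMI in 98 of 135 members of CD163_NC (72.6%, 64.3 to 79.9) and 212 of 310 of CD163_FL (68.4%, 62.9 to 73.5). Thinned to 2000 UMIs the shares were 67.4% and 61.6%, against 14.4% and 20.4% in counterparts and 1.35% and 2.97% in B cells. The summed Ikzf2 level was 2102 CPM (UMIs of the gene scaled to the total of the class) in members of CD163_NC and 2710 in CD163_FL. Cd7, a surface glycoprotein of T and natural killer cells, had a UMI in 62.2% and 53.5% of members and in 0.459% and 0.972% of B cells. It was not confined to members, as counterparts with a Cd8a UMI had it in 24.5% and 39.9%. Thinned to 2000 UMIs, members with Cd8a had Cd7 in 38.4% and 32.8%, and such counterparts in 11.4% and 14.7%. Natural killer and type 1 innate lymphocytes, gated on Ncr1 or Klrb1c without CD3, held 64 and 212 cells. Interleukin 17 type gamma delta T cells, gated on CD3, Trdc and a UMI of Il17a, Il17f or Il23r, held 22 and 59. Neither class reached the members' Ikzf2 level, at 780.2 and 808 CPM in the innate cells and 635.4 and 755.3 in the interleukin 17 cells.

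Other genes were higher in these neighbours, or higher in members. The interleukin 17 type gamma delta cells had high Rora, at 2261 and 4166 CPM, and Maf, at 702.3 and 410.6, both regulators of type 3 immunity, where members had 210.5 and 573.4 CPM of Rora and 26.0 and 23.2 of Maf. Gzma, which encodes the granule protease granzyme A, was at 0 UMIs in those cells of CD163_NC (up to 20.1 CPM) and at 27.0 CPM in CD163_FL, against 2669 and 1522 CPM in members. The interleukin 17 cells needed no natural killer gene, and members could hold no UMI of the interleukin 17 genes. How far the choice of both classes shapes these differences was not tested. Summed over the natural intraepithelial lymphocyte list, the innate cells were above members, at 6568 and 7055 CPM against 5620 and 5966. Over the list of natural killer receptors, which holds the genes that chose them, they were at 4227 and 4400 CPM against 1382 and 1086. They exceeded members in those genes themselves, in Ncr1, the NKp46 receptor, at 359.5 and 171.3 CPM against 37.8 and 2.28, and in Klrb1c (NK1.1) at 300.9 and 361.2 CPM against 52.0 and 15.0. Members had more Itgae, the alpha E integrin that binds epithelial E-cadherin, at 175.0 and 87.1 CPM against 25.1 and 1.68 in the innate cells.

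**Figure D1:**
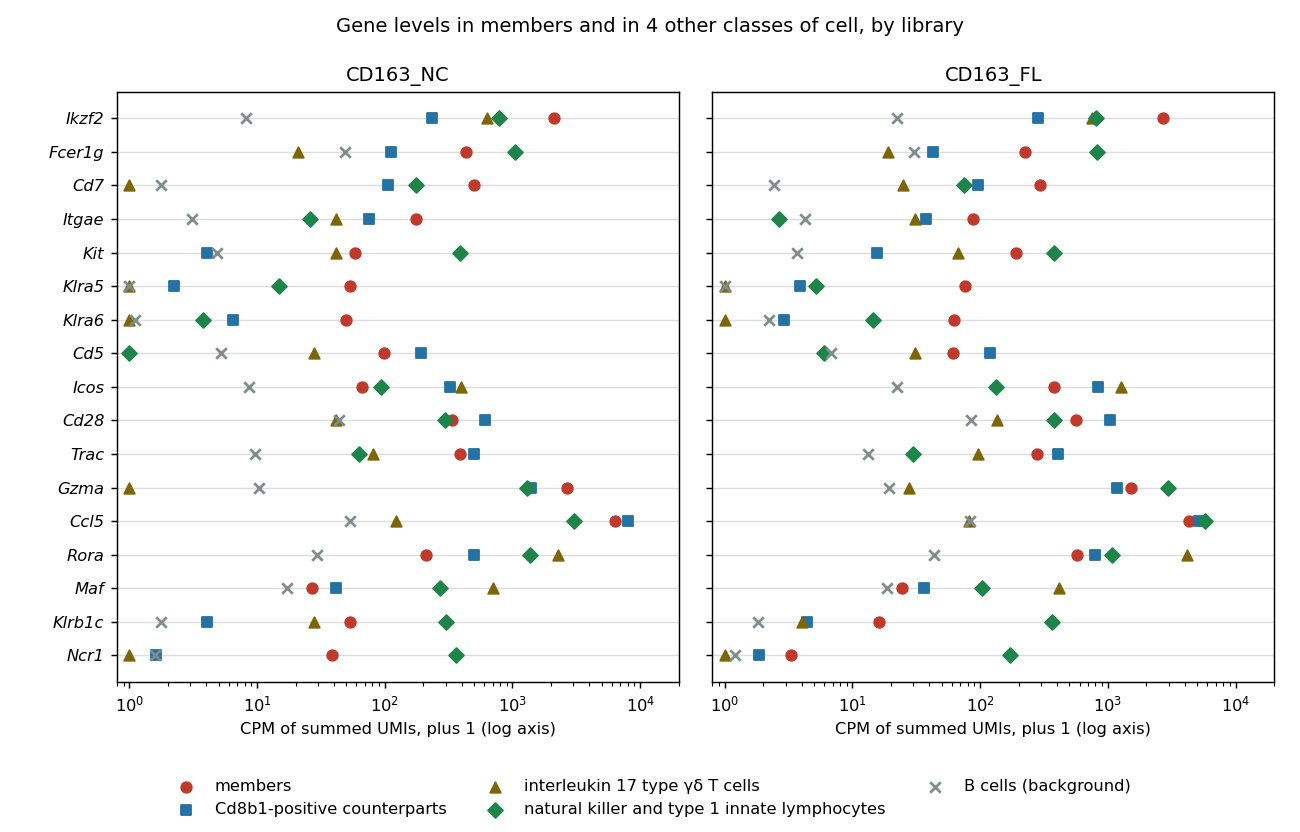
Level of 17 genes in members, Cd8b1-positive counterparts, interleukin 17 type gamma delta T cells, natural killer and type 1 innate lymphocytes, and B cells of each library. The x axis is CPM of summed UMIs plus 1 on a log scale, each point is 1 class of 1 library, and members (red) have the highest Ikzf2, Cd7, Itgae, Klra5 and Klra6 of the classes shown in both libraries.

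Against their counterparts, members had more transcript of 11 genes known from natural intraepithelial lymphocytes and less of 7 genes of conventional T cells, in both libraries. A gene was called when the whole 95% interval of the CPM ratio lay beyond 1.5-fold on the same side in both libraries. Of 8263 genes with enough UMIs outside the rule, 115 (1.39%) were higher and 28 (0.339%) lower in members. These counts depend on the processing: cells thinned to 2000 UMIs gave 15 and 2, and the mean of CPM per cell, which has no interval, gave 387 and 220. Within single libraries the calls were 198 higher (2.39%) and 114 lower (1.37%) of 8294 genes in CD163_NC, and 540 higher (5%) and 206 lower (1.91%) of 10806 in CD163_FL. The median log2 ratio over all genes was -0.01 and -0.04, and the lists below are read beside it. The lists share genes and were chosen with earlier results of these data known. The natural intraepithelial lymphocyte list holds the defining markers Ikzf2 and Cd7. Its counts therefore describe the members and do not test the label.

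Of the natural intraepithelial lymphocyte list, 11 of 22 measured genes were higher in members and 0 lower, with a median log2 ratio of 1.15 in CD163_NC and 1.05 in CD163_FL. Ikzf2 led in the number of UMIs. Counterparts had 234.2 and 284.6 CPM of Ikzf2, so members were 8.98-fold higher in CD163_NC (log2 ratio 3.17, 3.01 to 3.33) and 9.52-fold higher in CD163_FL (3.25, 3.19 to 3.32). Cd7 followed with 497.8 against 104.6 CPM in CD163_NC and 294.0 against 94.5 in CD163_FL. Fcer1g, the gamma chain adaptor of Fc and natural killer receptors, had 435.1 against 110.1 CPM and 225.2 against 41.6 CPM (log2 ratios 1.98 and 2.44). The related adaptor Tyrobp (DAP12) was at 163 against 70.9 CPM and at 120 against 33.0. Itgae was 2.35-fold higher in both libraries (log2 ratio 1.23, 0.87 to 1.59 in CD163_NC and 0.97 to 1.49 in CD163_FL). Cd244a, the 2B4 receptor, Lat2, a scaffold that links receptors to signalling, and Cd96, an adhesion receptor, completed the group together with Klrb1c, Klra1 and Klra5. Not every gene of the list moved: Jaml had log2 ratios of 0.54 and 0.00, Klrc1 of -0.49 and -0.71, Klrc2 of -0.17 and -0.30, and Entpd1, the ectonucleotidase CD39, of 0.20 and 0.01.

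The Ly49 receptors, encoded by Klra genes and able to bind MHC class I molecules, were rare but far above their level in counterparts. Klra6 had a UMI in 17.8% and 20.6% of members, at 48.5 and 61.1 CPM against 5.50 and 1.92. Klra5 had a UMI in 7.41% and 7.74% of members, at 52.0 and 75.7 CPM. Its log2 ratio to counterparts was 5.41 in CD163_NC, where counterparts held few UMIs (3.47 to 8.50), and 4.71 in CD163_FL (4.12 to 5.36). B cells had 0 Klra5 UMIs in both libraries, which allows up to 0.175 and 0.616 CPM. Of the list of natural killer receptors, 9 of 17 measured genes were higher in members and 0 lower, with medians of 2.22 and 2.04. The others were Klra1, Klra3, Klrb1a, Klrb1c, Klre1, Klri2 and Cd244a, and all lie in the Klr family except Cd244a. Cd226, Klrc1, Klrc2 and Klrg1 had negative log2 ratios in both libraries without passing the rule. Klra genes are near-identical copies, so reads may be divided among them with error, and 1 barcode held 25.0% of the Klra5 UMIs of CD163_NC and 32.3% of the Klra1 UMIs. In cells thinned to 2000 UMIs, where membership was decided anew, the median of this list turned to -0.86 and -0.0340, and the log2 ratio of Klra1 in CD163_NC to -0.0395.

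Receptors and regulators outside that list were also higher in members. Kit, the stem cell factor receptor, was at 57.9 CPM in CD163_NC and 191.0 in CD163_FL, against 3.06 and 14.5 in counterparts (log2 ratios 4.24 and 3.72). Spry2, an inhibitor of growth factor signalling, was at 180 and 151 CPM against 9.78 and 8.88, and Clnk, a cytokine-dependent adaptor, had log2 ratios of 5.03 and 4.02. Myo1e, an unconventional myosin, was at 338 and 464 CPM against 28.1 and 40.7. Of 18 measured transcription factors, 5 were higher in members and 0 lower, namely Ikzf2, Zbtb16, Tox, Ahr and Id3. Zbtb16, the PLZF factor of innate-like T cells, had log2 ratios of 4.95 (2.98 to 8.06) and 3.17 (2.65 to 3.70), but 53.1% of its UMIs in CD163_NC came from 1 member. Tox, a factor of T cell development, was 2.46-fold and 2.80-fold higher. Ahr, a sensor of dietary and microbial ligands on which intraepithelial lymphocytes are known to depend, was at 56.8 and 89.8 CPM against 19.6 and 20.7, but in thinned cells its log2 ratio in CD163_NC turned to -0.0395, so no order is read for it there. Id3 had log2 ratios of 1.18 and 1.97.

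The remaining genes with the largest ratios were Sox5, a transcription factor, Dnm3, a dynamin, and Frmd5. Counterparts of CD163_NC had 0 UMIs of Sox5 and of Frmd5, so their log2 ratios of 4.76 and 4.07 there are lower bounds, set against 3 UMIs. In CD163_FL the ratios were 4.07 and 3.24. For Frmd5, 80.8% of the UMIs of CD163_NC came from 1 member. Tgfbr1, a receptor chain for the transforming growth factor beta that maintains intraepithelial cells, was at 80.4 and 97.1 CPM against 33.6 and 34.5, and was the only 1 of 15 cytokine receptors called. Of 16 checkpoint and costimulatory receptors, Tnfrsf9 (4-1BB), Cd96 and Cd200r1 were higher in members and Icos and Ctla4 lower. Of 18 interferon response genes only Ifi27l2a was called, and it was lower. Of 20 immediate early and stress genes only Fos was called, at 875 and 176 CPM against 429 and 51.8. Of 22 homing and retention genes, Itgae and Rgs2 were higher, and the chemokine receptor Ccr2 and the oxysterol receptor Gpr183 lower.

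Genes lower in members included costimulatory and signalling genes of conventional T cells. Of the list of conventional T cell genes, 7 of 19 measured genes were lower and 0 higher, with medians of -0.87 and -0.84. Icos, the inducible costimulator, was at 65.0 CPM in members of CD163_NC and 322.9 in counterparts, and at 381.1 and 831.7 in CD163_FL (log2 ratios -2.31 and -1.13). Cd28 was at 334.6 against 609.6 CPM and at 567.1 against 1037. Cd5, a brake on T cell receptor signalling, was at 98.1 against 190.2 CPM and at 60.2 against 118.5. Lat, Ctla4, Ly6a and Ly6c2 were the other 4. Icos was among the 12 largest decreases, together with St8sia1, which makes the ganglioside GD3 (log2 ratios -2.31 and -1.20), and the calcium-binding genes S100a4 (-1.49 and -1.91) and S100a6 (-1.29 and -1.81). Smaller decreases among them were those of Fam169b (-1.62 and -1.01) and of the signalling genes Inpp4b (-1.58 and -1.10), Ubash3a (-1.35 and -0.99) and Themis (-1.08 and -1.24). Il1b was called lower, but 66.7% and 50.4% of its UMIs in members came from 1 barcode in each library, and without those barcodes the call was lost.

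**Figure D2:**
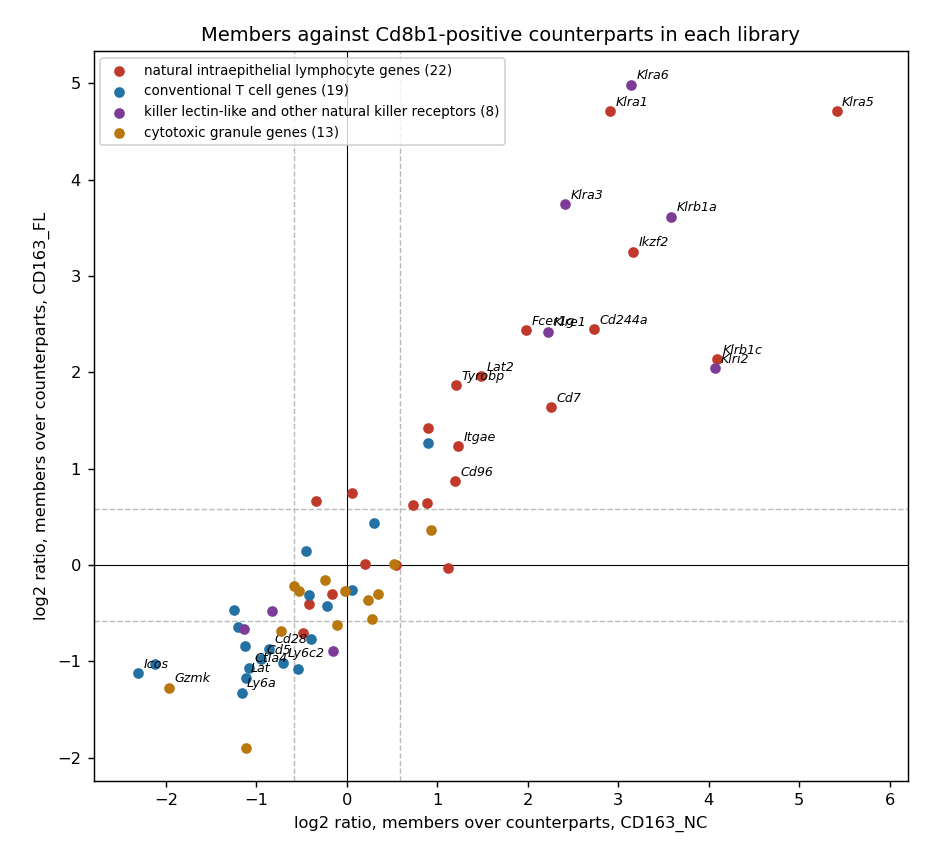
Log2 ratio of CPM, members over Cd8b1-positive counterparts, in CD163_NC (x axis) and CD163_FL (y axis). Each point is 1 gene of 4 lists, drawn once and coloured by the first list that holds it, dashed lines mark 1.5-fold, and names mark the genes called in both libraries, with Ikzf2 at 3.17 and 3.25 and Icos at -2.31 and -1.13.

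Few cytotoxic and cytokine genes were called on the same side in both libraries. Of 13 measured cytotoxic granule genes, 0 were higher in members and 1, Gzmk, was lower (27.2 against 106.4 CPM and 73.4 against 177.4). Gzma had log2 ratios of 0.93 and 0.36, Gzmb of 0.28 and -0.57, and Nkg7, a granule membrane protein, of -0.11 and -0.62. The positive ratios came with smaller shares of cells. In thinned cells Gzma was detected in 30.3% of members with Cd8a and 33.5% of counterparts with Cd8a in CD163_NC. In CD163_FL these shares were 33.6% and 50.9%. Gzmb showed 48.5% against 57.6%, then 50% against 70.7%. Members without Cd8a had lower shares of both genes than members with it. Of 11 cytokine and chemokine genes outside the rule, 0 were called on the same side in both libraries. Ccl4 lay beyond 1.5-fold in each library but on opposite sides, with log2 ratios of -0.99 in CD163_NC and 0.76 in CD163_FL. Ccl5, a chemokine of cytotoxic cells, was at 6343 CPM in members of CD163_NC and 8000 in counterparts, and at 4282 and 5149 in CD163_FL. Ifng was at 285 against 559 CPM and at 80.7 against 137. Among receptor genes, the constant genes of the gamma chain were higher in members, with log2 ratios of 3.88 and 3.18 for Tcrg-C1, 2.24 and 2.51 for Tcrg-C2, and 2.62 and 3.22 for Tcrg-C4. Trac had -0.39 and -0.53, and Trbc2 of the beta chain -0.32 and -0.65.

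The members were not uniform, and Ikzf2 divided them. In cells thinned to 2000 UMIs and split by whether an Ikzf2 UMI was present at full depth, Fcer1g was detected in 44.9% of members with Ikzf2 and 8.11% of members without it in CD163_NC, and in 34.8% and 7.22% in CD163_FL. Cd7 showed 49.0% against 8.11% and 43.3% against 17.5%. Itgae showed 32.7% against 2.70% and 18.1% against 3.09%. Kit was detected in 12.2% of members with Ikzf2 and in 0 of 37 without it in CD163_NC (exact interval up to 9.49%). In CD163_FL the shares were 27.6% and 1.03%. Median full depth was 6033 UMIs with Ikzf2 and 5403 without in CD163_NC, and 6860 and 6091.5 in CD163_FL.

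Genes of conventional T cells followed the opposite division. Cd6, a scavenger receptor family molecule of the T cell synapse, was detected in 5.10% of members with Ikzf2 and 40.5% without in CD163_NC, and in 11% and 35.1% in CD163_FL. Counterparts had Cd6 in 30.5% and 30.6%. Cd28 showed 25.5% with Ikzf2, 64.9% without and 61.9% in counterparts of CD163_NC, and 40.5%, 73.2% and 81.5% in CD163_FL. Klrc1, the NKG2A receptor, showed 14.3%, 43.2% and 33.1%, then 21.0%, 47.4% and 46.9%, and Gzmb 32.7%, 62.2% and 57.6%, then 34.8%, 60.8% and 70.3%. For these genes the members without an Ikzf2 UMI lay nearer to the counterparts than to the other members. The gamma chain genes followed Ikzf2 as well: Tcrg-C2 was detected in 28.6% of members with Ikzf2 and 2.70% without in CD163_NC, and Tcrg-C4 in 7.14% and 1.03% in CD163_FL. Among counterparts the same split ran in the same direction for the genes given next, with smaller gaps in percentage points. Fcer1g was detected in 14.0% with Ikzf2 and 3.23% without in CD163_NC and in 5.47% and 2.20% in CD163_FL. Cd28 showed 56.0% and 63.4%, then 80.6% and 82.1%. Klrc1 showed 20% and 36.6%, then 44.3% and 48.6%, and Tcrg-C2 8% and 1.08%, then 0.995% and 0.676%. Fcer1g and Tcrg-C2 were rarer in counterparts with Ikzf2 than in such members, so smaller gaps there need not mean a weaker division. The difference between members and counterparts in this division was not tested.

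**Figure D3:**
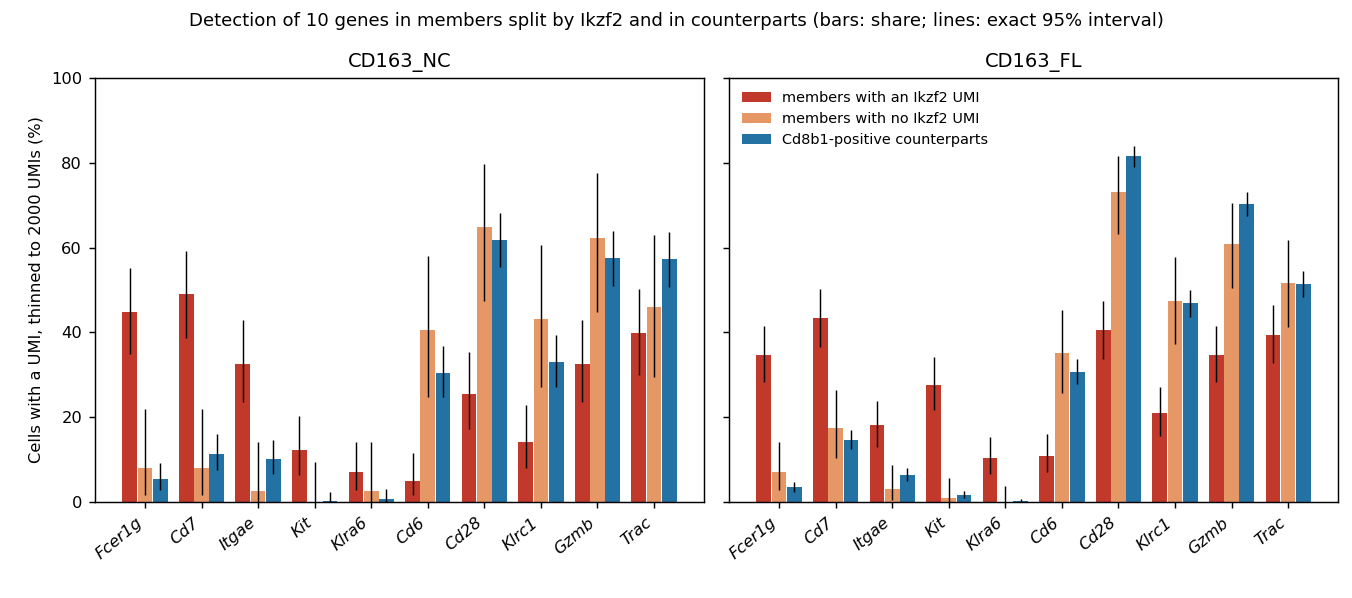
Share of cells (y axis, %) with a UMI of 10 genes after thinning to 2000 UMIs, for members with an Ikzf2 UMI, members with none and Cd8b1-positive counterparts of each library. Bars are shares and lines exact 95% intervals, and members with none (orange) lie near counterparts (blue) for Cd6, Cd28, Klrc1 and Gzmb, as in the 64.9% and 61.9% with Cd28 in CD163_NC.

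Ikzf2, Fcer1g or Tyrobp thus had a UMI in most members but not in all of them, and in part of the counterparts. Ikzf2 is among the defining markers, so its presence does not test the label. Ikzf2, Fcer1g and Tyrobp were all at 0 in 32 members of CD163_NC (23.7%) and 81 of CD163_FL (26.1%), against 69.2% and 53.5% of counterparts. Members with an Ikzf2 UMI made up 0.979% of barcodes that passed the limits in CD163_NC and 1.47% in CD163_FL, a ratio of 1.51 (1.19 to 1.91). Members with none, 37 and 98 cells, had a ratio of shares of 1.84 (1.26 to 2.69). The intervals of these ratios overlap.

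Few genes were called between members with and without a Trdc UMI. Of 5319 genes measured in both kinds in both libraries, 9 (0.169%) were higher with Trdc and 12 (0.226%) lower. Ikzf2 was at 2141 CPM with Trdc and 2078 without in CD163_NC, and at 3512 and 2384 in CD163_FL. Zbtb16 was higher with Trdc, with log2 ratios of 5.64 and 1.68, as was Klrb1c, with 2.86 and 2.50. The members of CD163_NC held only 32 Zbtb16 UMIs, 53.1% of them in 1 barcode. Tcrg-C1 (1.89 and 2.30), Tcrg-C4 (1.37 and 1.99), Rbpms and Sfmbt1 were also higher. Lower with Trdc were Gzmk (-3.77 and -2.33), Cd6 (-3.96 and -1.57), Trac (-2.19 and -1.68), Bcl2a1d, a survival gene, Plxnc1, Mxi1, Rbm47 and Ifi27l2a. The calls of Lyz2, Ptgs2, Cd86 and Cd74 were lost once the barcode with the most UMIs of the gene was left out. Klra5 was at 6.17 CPM with Trdc and 80.5 without in CD163_NC, and at 86.9 and 71.1 in CD163_FL.

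Between the libraries, members of CD163_FL had less transcript of immediate early and interferon-induced genes and more of several costimulatory and cytokine receptor genes. Of 8611 genes with at least 20 UMIs over both libraries, 373 (4.33%) were higher in CD163_FL and 328 (3.81%) lower, and the median log2 ratio of CD163_FL over CD163_NC was 0.05. Thinned cells gave 113 and 87, the mean of CPM per cell 1802 and 1579. The counterparts of the libraries differed too. Of 10719 genes measured in them 387 were higher (3.61%) and 589 lower (5.49%), with a median of 0.06. With 1 library each, a difference of condition, of animal or of preparation cannot be told apart.

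Of 20 immediate early and stress genes, 13 were lower in CD163_FL members and 0 higher, with a median of -1.07, and 16 of 20 were lower in counterparts, with a median of -1.58. Fos, a subunit of the AP-1 factor that is also induced by tissue dissociation, was at 874.9 CPM in CD163_NC and 176.4 in CD163_FL, 4.96-fold lower (log2 ratio -2.31, -2.49 to -2.13). Jun fell by 1.54 on the log2 scale, Egr1 by 1.68, Nr4a1 by 1.74 and Junb by 0.91. Of 18 interferon response genes, 9 were lower and 1, Gbp2, was higher, with a median of -0.84 in members and -0.996 in counterparts. Ifi27l2a was at 1822 CPM in CD163_NC and 212.4 in CD163_FL (log2 ratio -3.10, -3.25 to -2.95), and it fell by 2.47 in counterparts. Irf7, Isg15, Bst2 and Ifit1 were also lower. Other genes among the 12 largest decreases were Rtp4 (60.3 and 7.29 CPM), Ifi213 (143.1 and 24.2), Ms4a4c (59.1 and 12.3), Ddx60 (67.4 and 14.1) and Zfp831 (69.8 and 16.0).

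Of 16 measured cytokine and chemokine genes, 4 were lower in CD163_FL members, 2 higher and 10 not called. The effector cytokine Ifng was at 285 CPM in CD163_NC and 80.7 in CD163_FL, 3.53-fold lower (log2 ratio -1.82, -2.11 to -1.53), and Tnf at 81.6 and 24.2 CPM, 3.38-fold lower. Counterparts differed by -2.03 and -2.56 in these genes. Ccl3 and Ltb were the other genes called lower. Il4 and Ccl9 were called higher, but 1 barcode held 77.3% and 57.8% of their UMIs in CD163_FL, and the log2 ratio of Ccl9 turned to -0.0611 in cells thinned to 2000 UMIs. The granzymes Gzma (-0.81) and Gzmb (-0.75) and Nkg7 (-0.80) were lower, and Gzmk, Serpinb9 and Serpinb6b higher, among 13 cytotoxic genes. For Gzma the share of members with a UMI ran the other way, 26.7% in CD163_NC and 40.0% in CD163_FL, and in thinned cells the log2 ratios of Gzma and Gzmb turned to 0.24 and 0.20, so no order is read for either gene.

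Of the defining markers outside the rule, Ikzf2 had a log2 ratio of 0.37 (0.29 to 0.44) and Cd7 of -0.76 (-0.94 to -0.58), neither wholly beyond 1.5-fold. Of 22 natural intraepithelial lymphocyte genes 6 were lower in CD163_FL, namely Fcer1g, Cd160, Cd244a, Itgae, Jaml and Klrb1c, and 2 higher, Abcb1a, a drug efflux pump, and Gpr18, a chemoattractant receptor. Itgae fell by 1.01 in members and by the same 1.01 in counterparts. Cd160 fell by 1.47 in members, at 145 and 52.4 CPM, and by 0.33 in counterparts. Kit was 3.30-fold higher in CD163_FL members (log2 ratio 1.72, 1.29 to 2.18). Of 23 natural killer receptors 7 were lower and 0 higher: Klrb1a, Klrb1c, Klre1, Ncr1, Cd226, Cd244a and Cd160. No order is read for Cd226, whose log2 ratio turned to 0.13 in thinned cells, and that of Klrb1a turned to 0.62 among Trdc-positive members. The Ncr1 UMIs of CD163_NC came from 4 members (2.96%), 1 of which held 46.9%.

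Of 8 measured T cell receptor constant and CD3 genes outside the rule, 3 were lower in CD163_FL members, all of them constant genes of the gamma chain, and 5 were not called. Tcrg-C2 was at 115.9 CPM in CD163_NC and 20.1 in CD163_FL, 5.78-fold lower (log2 ratio -2.53, -3.08 to -2.003), Tcrg-C1 fell by 1.95 and Tcrg-C4 by 1.46. In counterparts the same genes differed by -2.79, -1.25 and -2.06. Trdc, a gene of the rule, was at 289.7 and 124.0 CPM in members. Trac had a log2 ratio of -0.46 (-0.65 to -0.26). The gamma chain constant genes are similar in sequence, so the division of reads among them is uncertain.

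Costimulatory, cytokine receptor and homing genes were among the genes higher in CD163_FL members. Icos was at 65.0 CPM in CD163_NC members and 381.1 in CD163_FL members, 5.86-fold higher (log2 ratio 2.55, 2.16 to 2.97), and 1.37 higher on the log2 scale in counterparts. Ctla4, Tnfrsf9 and Tigit were higher too, making 4 of 16 checkpoint genes higher and 0 lower. Of 15 cytokine receptors 3 were higher and 0 lower: Ifngr1, the interferon gamma receptor (2.41-fold), Il12rb2 and Il18r1. Of 22 homing and retention genes 6 were higher, among them Itga4, Ccr2, Cxcr6, Gpr18 and Gpr183, and 4 lower, namely Itgae, Itga1, Cd69 and Klf2. The conventional T cell list was divided, with 3 higher (Icos, Ctla4 and Satb1) and 3 lower (among them Ly6c2 and Ly6a) of 18. Among transcription factors Zeb2 (2.08), Rora (1.45) and Eomes (1.39) were higher in CD163_FL, and Id3 (-1.36) and Tbx21 (180 and 89.8 CPM) lower.

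**Figure D4:**
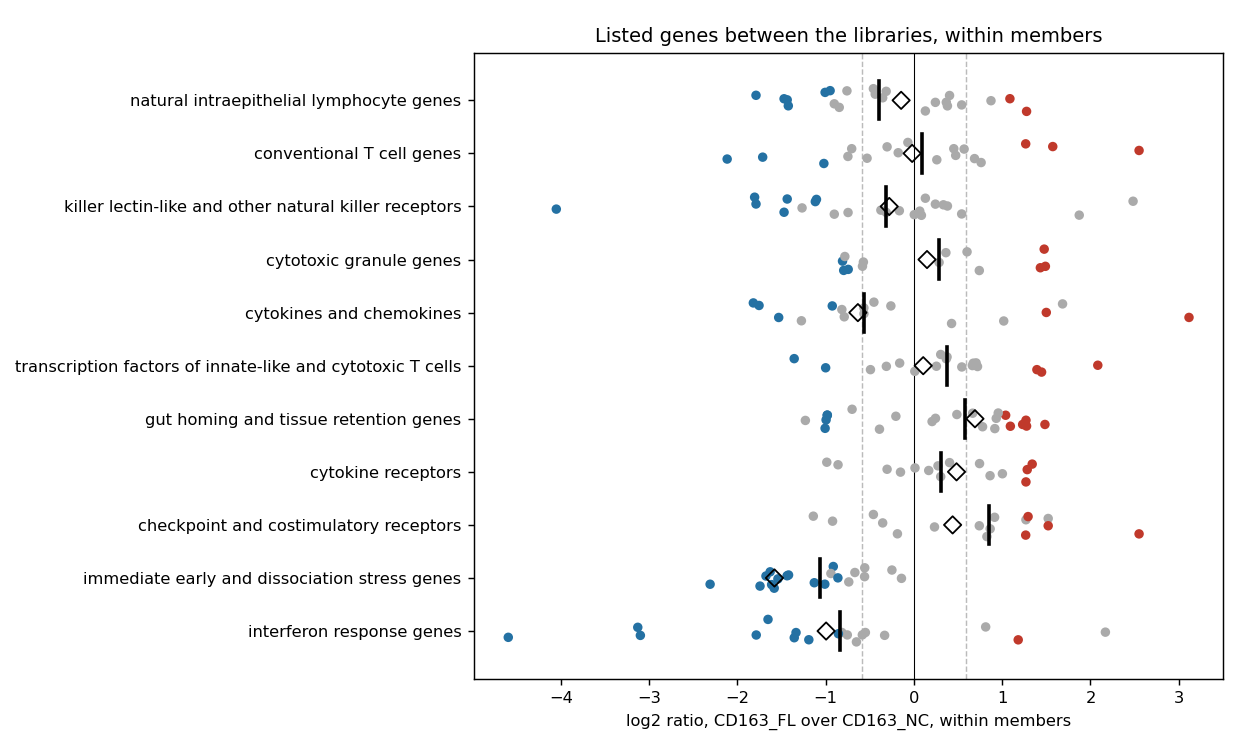
Log2 ratio of CD163_FL over CD163_NC within members for the measured genes of 11 lists. Each point is 1 gene, red where called higher and blue where called lower, black bars are list medians in members and open diamonds list medians in counterparts, and dashed lines mark 1.5-fold. Immediate early and interferon genes lie to the left in both, with member medians of -1.07 and -0.84.

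Single barcodes held most of the UMIs of several genes with the largest differences between libraries. The largest decreases were the neutrophil genes S100a8, S100a9, Retnlg and Lcn2, at 1800, 1679, 335 and 157 CPM in CD163_NC, and 1 Trdc-positive member with 17394 UMIs held 94.7%, 95.1%, 97.2% and 90.2% of them. S100a8 had 3 UMIs in CD163_FL (log2 ratio -10.36, -12.64 to -8.81). With the top barcode of each gene left out all 4 calls held, with log2 ratios of -6.70 for S100a8, -5.92 for S100a9, -4.38 for Retnlg and -3.49 for Lcn2, where S100a9 and Lcn2 were at 0 UMIs in CD163_FL and were set against 3. In counterparts S100a8 was at 87.4 and 1.18 CPM. Among the 12 genes with the largest increases, Hspb1, Pkib, Tnfsf4, Dcn, Col3a1, Htr7 and Tnip3 each had most of their CD163_FL UMIs in 1 barcode, and the calls of Hspb1, Tnfsf4, Col3a1 and Tnip3 were lost without it. Dcn and Col3a1, which encode matrix proteins of fibroblasts, were at 0 UMIs in CD163_NC. The gain in Ramp3, a receptor activity-modifying protein, was spread over many cells, at 15.4 and 128.5 CPM with at most 3.90% of CD163_FL UMIs in 1 barcode. Gab2, a signalling adaptor (7.09 and 55.2 CPM), Samd4 (0 and 36.9), Pde10a (1.18 and 27.8) and Cxcl16 (3.55 and 29.6) made up the rest, with Cxcl16 resting on 3 UMIs in CD163_NC (log2 ratio 3.06, 1.45 to 5.38) and Pde10a on 1 (4.56, 2.02 to 9.88). Leaving out for each gene its own top barcode kept 341 of the 373 higher calls and 273 of the 328 lower calls.

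Markers of other cells were low but not absent in members, and their part in the differences was not tested. Foxp3 was at 0 UMIs in both libraries (up to 3.55 and 1.37 CPM) and Cd40lg at 0 and 1, although Ctla4, Icos and Il2ra, shared by activated T cells, brought the summed level of the CD4 and regulatory list to 299 and 924 CPM. Of the B cell markers, Pax5 had 0 and 1 UMIs, and the summed level of the list was 8862 and 10015 CPM, against 65777 and 86147 in B cells. Most of it was immunoglobulin transcript, and 1 member of CD163_FL held 40.1% of the Igkc UMIs of that library's members. The myeloid list summed to 1970 and 242 CPM, mostly S100a8 in CD163_NC, with C1qa at 0 and 1 UMIs. Other myeloid genes went the other way. Of 6 measured, Cd14 was called higher in CD163_FL (1.18 and 25.1 CPM, log2 ratio 4.41, 1.87 to 9.74), from 1 UMI in CD163_NC, and so was Il1b (28.4 and 110.3 CPM, 3.89-fold), while S100a8 was the 1 called lower. In each library 1 barcode held most of the Il1b UMIs, 66.7% and 50.4%. Without these barcodes the log2 ratio of Il1b was 2.53. The epithelial list summed to 117 and 32.8 CPM, with Krt20 at 0 in both and Lypd8 at 29.6 and 1.82 CPM. Natural killer markers summed to 1334 and 776 CPM, against 3288 and 3579 in innate cells, and consisted mainly of Cd7, Fcer1g and Tyrobp. The list of type 2 and type 3 innate lymphoid cells summed to 115 and 301 CPM in members. It was at 51.4 and 113 CPM in counterparts and 465 and 485 in innate cells. Kit belongs to that list and made up 57.9 and 191.0 CPM of it in members. Scrublet called 1 member of CD163_NC and 13 of CD163_FL as doublets.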

How the data were processed

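Raw UMI count matrices deposited by the authors were analysed. Per the file headers they come from Cell Ranger 7.1.0, and the build, mm10, and a use of Seurat 4 of unstated purpose are per the submitters' processing notes. How reads were aligned, and whether ambient RNA was subtracted, is not given in the sources used here. The matrices list 32285 genes for 10390 barcodes with 94729872 UMIs (CD163_NC) and 15270 with 131306539 (CD163_FL).

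Levels are CPM of UMIs summed over a class, with exact Poisson intervals. Ratios of CPM have exact conditional binomial intervals, shares Clopper-Pearson intervals, and ratios of shares log-normal intervals, all at 95%. Genes needed 20 UMIs over both libraries, or 20 in each library when 2 classes were compared, and genes of the rule took no part. A count of 0 was read as up to 3 counts. Ratios against 0 use that floor. Thinning drew 2000 UMIs per cell and left out 3 shallower members of CD163_FL. Doublets were treated by Scrublet (scanpy 1.11.5, Python 3.11.15, numpy 2.4.6, scipy 1.17.1), run per library, which called 2.47% and 4.40% of barcodes, below the expected 8.31% and 12.2%, and called barcodes were left out only as an alternative. Gene positions are from the GENCODE annotation of mm10.

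Named genes were the 12 largest and 12 smallest ratios with at least 50 UMIs in the higher library (in the higher class over both libraries between classes). Between libraries the level had also to be at least 0.5 times that of all barcodes that passed. Mitochondrial, ribosomal, sex-linked, receptor variable and unnamed genes were left out. Up to 4 genes per list with the most UMIs were added, with those called. Applying the rule to members with and without Trdc, and splitting by Ikzf2, were added after values were seen. The members and the 19 gene lists were chosen with earlier results of these data known. Alternatives covered doublets, depth, quality limits, strictness of the rule, scaling, gene minimum, pooling, counterparts and the Trdc-positive members. A few listed genes are not reported here by name.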

Additional observations from a re-analysis of the deposited data

Results flagged for a closer look

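A few genes had opposite differences between members and Cd8b1-positive counterparts in the 2 libraries, each wholly beyond 1.5-fold, and the difference between the libraries was not tested. Ccl4, a chemokine of activated cytotoxic cells, was lower in members of CD163_NC (478 against 946 CPM, log2 ratio -0.99) and higher in members of CD163_FL (398 against 235 CPM, 0.76). Igfbp4, a binding protein of insulin-like growth factors, had log2 ratios of -3.09 and 2.51, from 2 and 24 UMIs in members. Spats2 had -2.22 and 1.76, with 80.4% of its CD163_FL UMIs in 1 member. Pard6g, a cell polarity gene, had -2.51 and 3.32, from 3 and 47 UMIs.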

How the results depend on the processing

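With barcodes that have a Cd3e or Cd3g UMI as the denominator, the ratio of the member share moved from 1.60 to 1.20. Thinning to 2000 UMIs before applying the rule cut the counts of called genes to 113 higher and 87 lower between libraries, and to 15 higher and 2 lower between members and counterparts. Fewer UMIs and partly different cells enter that setting. Averaging CPM per cell, which has no interval, gave 1802 and 1579 between libraries and 387 and 220 between classes. Trdc-positive members alone gave 180 genes lower in CD163_FL and 52 lower in members. Members with an Ikzf2, Fcer1g or Tyrobp UMI, an alternative added after seeing the data, gave 67 lower in members. For these last 3 the cause was not tested.

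Reversals of called values came with thinning in 12 and with Trdc-positive members in 1. Between libraries, thinning gave log2 ratios of -0.0611 for Tnip3 and for Ccl9, 0.13 for Cd226, -0.92 for Cd74, 0.24 for Gzma and 0.20 for Gzmb. For members over counterparts it gave -0.0395 for Klra1 and for Ahr in CD163_NC, 1.55 and 0.65 for Il1b, and medians of -0.86 and -0.0340 for natural killer receptors. Klrb1a turned to 0.62 between libraries among Trdc-positive members. The cause was not tested. The other alternatives, stricter quality limits, doublets left out, 2 UMIs in the rule, scaling, the gene minimum, wider counterparts and the 2 other added settings (the top barcode of a gene left out, and the barcode rich in S100a8 left out), reversed no called value and moved no count of genes beyond 1.5 times, but they moved single values. Of 3138 log2 ratios and list medians under all alternatives, 374 left their interval (for a median, that of the list) without a called value reversing: 111 with thinning, 95 with Trdc-positive members, 60 with an Ikzf2, Fcer1g or Tyrobp UMI, 43 with 2 UMIs in the rule, 23 with the mean per cell, 15 without doublets, 14 without the top barcode, 9 with wider counterparts, and 2 each without the barcode rich in S100a8 and with no gene minimum. Where an alternative left a gene at 0 in a group, it gave no value.

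No paired analysis was possible because each group has 1 library. With 135 and 310 members, low genes such as the Klra family rest on few cells, and a Cd8b1 count of 0 is not proof that the transcript is absent.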
